A study of Mus musculus with 21 samples.

Results

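The genes described here are 10 mouse genes of colonic water and ion transport: Car1, Car2, Car4, Aqp8, Aqp4, Slc26a2, Slc26a3, Scnn1b, Scnn1g and Cftr. They were chosen by name, with earlier results of these data known, out of 22367 protein-coding genes. Each was examined over its gene body plus 30 kb on each side in the mm9 genome. In that window every VDR-binding peak and every open-chromatin (ATAC-seq) peak was counted in 3 compartments: colon epithelium, small intestinal (SI) crypt and SI villus.

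The colon recovers most of the water and salt that reaches it. Carbonic anhydrases make bicarbonate and protons, which feed apical exchange of luminal sodium and chloride, and SLC26A3 is the apical exchanger that takes up chloride in return for bicarbonate. The epithelial sodium channel, of which Scnn1b and Scnn1g encode the beta and gamma subunits, absorbs sodium in the distal colon, whereas CFTR is the apical chloride channel of fluid secretion. Aquaporins carry water across cell membranes. The vitamin D receptor (VDR) is a nuclear receptor that binds DNA, with retinoid X receptor as its partner, when occupied by 1,25-dihydroxyvitamin D3 (1,25(OH)2D3).

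VDR ChIP-seq had been done on 4 colon, 4 SI crypt and 4 SI villus samples of C57BL/6 mice, 4 to 6 weeks old by their labels, that received 10 ng/g 1,25(OH)2D3 for 1 h. ATAC-seq covered 3 samples of each compartment from C57BL/6 mice labelled 90 days old. The age labels of the ChIP-seq mice differ from the study's methods, which describe older mice, and the ATAC-seq labels mention the hormone whereas the methods describe untreated mice. No vehicle-treated ChIP and no input library entered the peak calls, so every VDR signal below is a signal after hormone, set against local background within its own sample. Colon epithelium was scraped mucosa of the entire colon, and crypts and villi were released with EDTA from the proximal small intestine (duodenum in the labels) of the same group of mice. Samples of different compartments may therefore share a mouse, and the labels do not tie a replicate to a mouse, so the tests measure the spread between these samples.

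Depth was uneven. The colon VDR samples held 9127982 to 14716273 reads after duplicate filtering and 1760 to 10100 peaks, the SI crypt samples 3100376 to 9021688 reads and 1136 to 13381 peaks, and the SI villus samples 4858968 to 12479695 reads and 1535 to 10384 peaks. A missing peak in SI crypt therefore means that none was detectable at a lower depth than in colon. The SI villus read numbers overlapped those of colon but reached lower, so the same limit holds for the shallower SI villus samples. ATAC-seq gave 21269 to 32853 peaks per colon sample, 35220 to 57825 in the SI crypt and 43090 to 51037 in the SI villus. Marker promoters (1 kb on each side of the gene start) were checked against the labels: of 6 SI villus markers, 0 were open in all 3 colon samples, 2 in the SI crypt and 3 in the SI villus, and of 10 non-epithelial markers 0 were open in all 3 samples of any compartment. Among the colon markers, Hoxb13 was open in 3 colon, 0 SI crypt and 1 SI villus sample, Hoxd13 in 1 colon sample, 1 of SI crypt and 0 of SI villus, and B3gnt6 and Fxyd4 in none.

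Shown here are 4 stretches of sequence from VDR-binding sites described below. All are read from the plus strand of mm9, 5′ to 3′, with 100 bases on each side of the summit of a pooled colon VDR-binding peak. The first is the strongest VDR-binding site of the set (chr12:32085818-32086017, intron of the longest Slc26a3 transcript), and the second a Car1 intron site called in every colon sample (chr3:14777400-14777599). The third is the region 3′ of Aqp8 (chr7:130612394-130612593, intergenic). The fourth is a Cftr intron site (chr6:18253709-18253908) that was in the pooled lists of all 3 compartments but was called in no single colon sample. Capitals mark a match, with at most 1 mismatch, to the DR3 element, a direct repeat of the nuclear receptor half-site with a spacer of 3 bases.
Slc26a3 +10.2 kb: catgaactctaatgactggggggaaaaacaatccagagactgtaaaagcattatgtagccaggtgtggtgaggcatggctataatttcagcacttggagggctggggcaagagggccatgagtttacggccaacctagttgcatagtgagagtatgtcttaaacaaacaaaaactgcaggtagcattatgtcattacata
Car1 +0.96 kb: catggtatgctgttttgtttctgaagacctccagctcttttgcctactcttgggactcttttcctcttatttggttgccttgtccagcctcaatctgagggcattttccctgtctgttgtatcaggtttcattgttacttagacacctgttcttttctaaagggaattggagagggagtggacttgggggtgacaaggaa
Aqp8 +6.68 kb: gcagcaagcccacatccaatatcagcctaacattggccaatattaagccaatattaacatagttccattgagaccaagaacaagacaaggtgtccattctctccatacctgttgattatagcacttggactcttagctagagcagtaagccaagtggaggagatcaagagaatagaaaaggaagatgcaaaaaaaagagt
Cftr +133 kb: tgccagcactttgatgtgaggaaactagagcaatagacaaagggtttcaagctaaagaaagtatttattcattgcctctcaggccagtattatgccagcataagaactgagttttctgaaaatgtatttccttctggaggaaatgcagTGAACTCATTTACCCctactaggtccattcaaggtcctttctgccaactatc
Lower case throughout, the Slc26a3, Car1 and Aqp8 stretches held no DR3 element even with 1 mismatch, and the Cftr stretch held 1.

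Most pooled VDR-binding peaks in these windows came from the colon list, the longest of the 3 (22882 peaks, against 12702 for SI crypt and 18078 for SI villus). In the pooled lists, for which the authors joined the samples of a compartment, 8 of the 10 genes had a VDR-binding peak in their window in colon, 3 in the SI crypt and 6 in the SI villus. Among all 22367 protein-coding genes 63.2% had one in colon, 51.6% in the SI crypt and 56.9% in the SI villus, so the number of genes with a peak was not far from these shares. The 10 windows held 60 pooled colon peaks, against 6 in the SI crypt and 10 in the SI villus, and 23 of the 60 lay in runs over Car1 and Slc26a3. Of the 60, 51 (85%) overlapped no pooled SI peak, against 55.7% of all pooled colon peaks. Merged across compartments they made 65 sites, of which 51 were called in the colon list alone, 2 in SI crypt alone, 3 in the SI villus alone and 2 in all 3 lists. Aqp4 and Scnn1b had no VDR-binding peak in any pooled list.

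Many of these peaks were weak. Of the 60 colon peaks, 36 (60.0%) were called in no single colon sample, against 50.8% of all 22882 pooled colon peaks. Only 12 were called in at least 2 colon samples, and these belonged to 4 genes (Car1, Aqp8, Slc26a2 and Slc26a3). Fold enrichment over the local background had a median of 2.31 at the 60 colon peaks and 3.36 over the whole colon list.

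**Figure D1:**
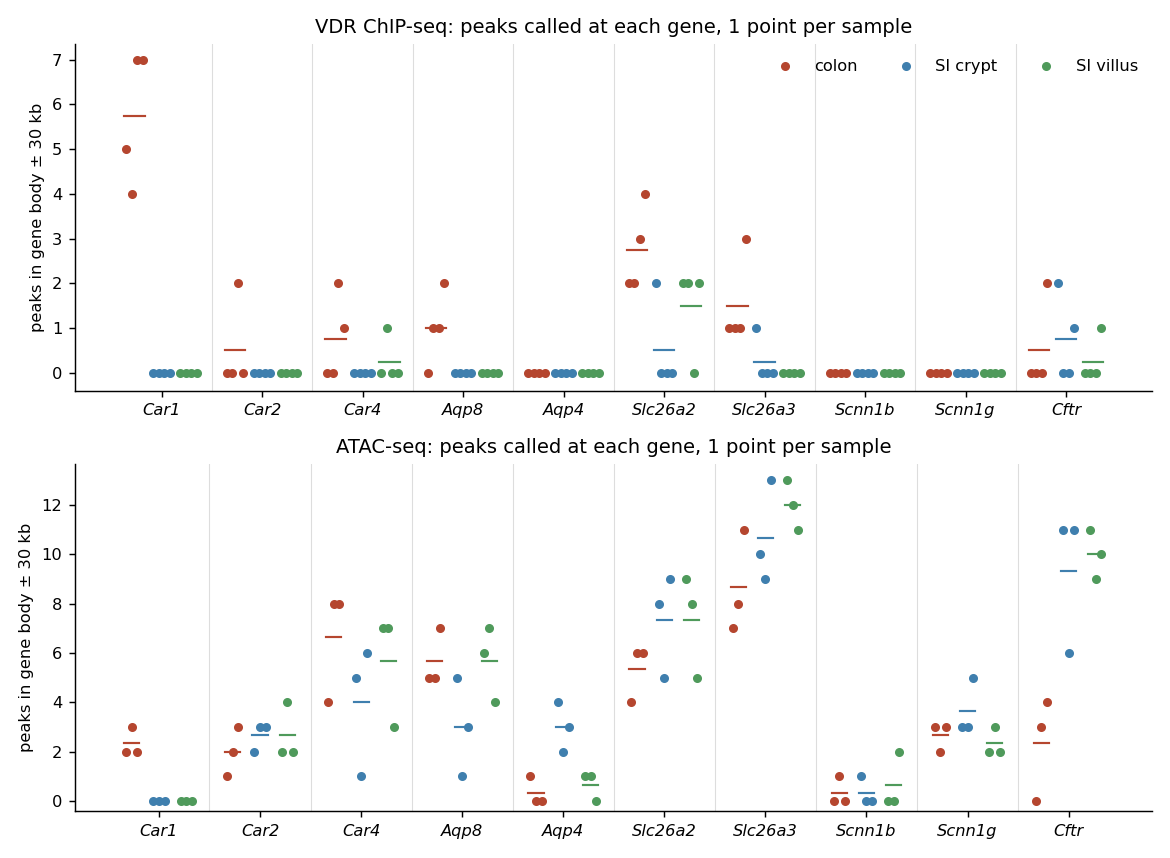
Number of peaks (vertical axis) called in the gene body plus 30 kb on each side of each gene (horizontal axis), for VDR ChIP-seq above and ATAC-seq below. Each point is a sample (colon, SI crypt and SI villus, left to right) and each line the mean of its compartment. The 4 colon VDR samples held 4 to 7 peaks at Car1, where the 8 SI samples held 0, and the ATAC-seq panel shows 0 to 4 peaks at Cftr in colon, against 6 to 11 in the SI crypt and 9 to 11 in the SI villus.

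Car1, a cytosolic carbonic anhydrase that is abundant in colonocytes, stood apart from the other members. Its window (gene at chr3:14766217-14778459, minus strand) held 5, 4, 7 and 7 VDR-binding peaks in colon replicates 1 to 4, and 0 in each of the 4 SI crypt and 4 SI villus samples. The groups did not overlap: the mean was 5.75 ± 1.50 peaks (SD, n = 4) in colon and 0 in either SI compartment, with an exact two-sided permutation p of 0.0286 in each comparison, the smallest that 4 against 4 samples allow. Over all 14706 genes with a peak in colon or SI crypt samples, 0.918% did not overlap with colon higher, and over 14404 genes in colon or SI villus 1.50% did. After Benjamini-Hochberg adjustment across those genes the exact permutation p was 1 for Car1 and 0 genes passed, whereas 168 genes in the SI crypt comparison and 294 in the SI villus comparison had an unadjusted p under 0.05. When only the 1136 strongest peaks of each sample were kept, the groups overlapped at Car1.

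The Car1 signal in colon was spread over the gene. Of 9 pooled peaks, 8 lay in a run of 13.4 kb (chr3:14764720-14778071) that covers the gene body and its 3′ end, at +0.96, +3.07, +6.02, +7.01, +9.66, +11.9, +12.7 and +13.3 kb from the gene start. Their fold enrichment was low, at 1.64 to 2.65, whereas −log10 q reached 8.24 to 45.2. The local background beneath them, the pileup that the peak caller expected there, was 84.6 to 184, against a median of 8.05 and a 99th percentile of 74.5 over all pooled colon peaks. VDR-binding peaks covered 37.7% of the Car1 gene body in colon, rank 8 of 16526 protein-coding genes of at least 5 kb, and 0% in the SI crypt and SI villus. None of the 8 overlapped a pooled colon ATAC-seq peak, and the part of the high local background in their calls was not tested.

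Of the 8 peaks of the Car1 run, 7 were called in at least 2 colon samples. At +0.96 kb, in an intron, fold enrichment was 2.24, 2.50, 2.59 and 3.50 in colon replicates 1 to 4. At +6.02 kb, also intronic, it was 2.14, 2.28, 1.95 and 3.08. The strongest pooled peak, 3′ of the gene at +13.3 kb, had −log10 q of 18.7, 17.5 and 18.05 in replicates 1 to 3 and was not called in replicate 4. That replicate called the +11.9, +9.66 and +7.01 kb peaks, as replicate 3 did, with 3.44, 2.80 and 2.93-fold enrichment. All 8 SI samples lacked a call at each of these sites. The ninth pooled peak, at -28.4 kb (chr3:14806785-14806997, intergenic), was of another kind, with 5.05-fold enrichment over a local background of 4.35, a call in replicate 4 alone, and a colon ATAC-seq peak beneath it.

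**Figure D2:**
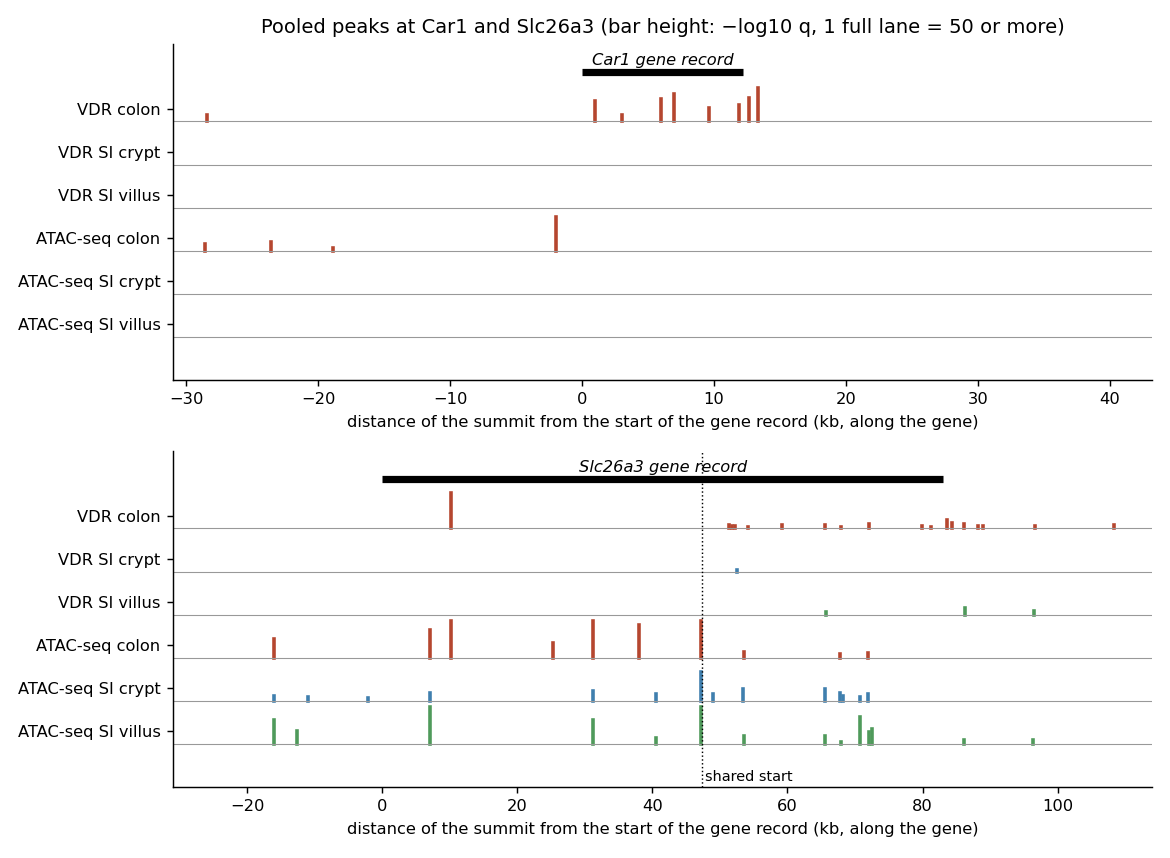
Pooled VDR-binding and ATAC-seq peaks of the 3 compartments at Car1 (above) and Slc26a3 (below), by distance of the summit from the start of the gene record in kb. Bar height is −log10 q, drawn up to 50, and the dotted line marks the start that 4 of 7 Slc26a3 transcripts share within 20 bp. Every Car1 peak lies in a colon lane, and the tall Slc26a3 VDR bar at +10.2 kb stands over a colon ATAC-seq peak at the same place.

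Slc26a3, the chloride-bicarbonate exchanger, carried the strongest VDR-binding site of the set. The site (chr12:32085678-32086156) lies 10.2 kb inside the gene record, in an intron of its longest transcript, and 37.2 kb upstream of the transcript start at 32123084. Of the 7 annotated Slc26a3 transcripts, 4 start within 20 bp of that position (32123082 to 32123098), which is called the shared start here. Fold enrichment in the pooled colon list was 10.3, with −log10 q of 48.2, rank 1167 of 22882. In colon replicates 1 to 4 the fold was 5.30, 7.86, 6.62 and 10.3, and no SI crypt or SI villus sample called a peak there. A colon ATAC-seq peak covered the same place in all 3 colon samples, at 6.68, 9.71 and 9.45-fold enrichment, and in 0 of 6 SI samples. Its local background of 6.27 was below the median of the colon list, unlike that of the Car1 run.

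The rest of the Slc26a3 gene body looked like Car1 at lower strength. A further 15 pooled colon peaks lay over 38.1 kb of the shorter transcripts and the region just 3′ of them, with 1.51 to 2.00-fold enrichment over a local background of 50.3 to 75.4. Of these 15, 14 were called in no single colon sample and 2 overlapped a colon ATAC-seq peak. SI crypt had 1 pooled peak in the window and SI villus 3, and none of them was called in a single sample. Counted per sample, the Slc26a3 window held 1, 1, 1 and 3 VDR-binding peaks in colon, 1, 0, 0 and 0 in the SI crypt and 0 in all 4 SI villus samples, and the SI crypt call lay outside the pooled SI crypt peak. Colon exceeded SI villus without overlap (exact permutation p = 0.0286, adjusted over all genes to 1), as Car1 did, and overlapped SI crypt through replicate 1 of that compartment, the sample with the most peaks of all 12 from the fewest reads. Without that sample Slc26a3 and Slc26a2 joined Car1, so that 3 members exceeded SI crypt, as did 5.81% of all genes with a peak in those samples. Without colon replicate 1, Aqp8 joined Car1, and 3.98% of all genes were without overlap. In windows of 100 kb, with the 1136 strongest peaks of each sample alone, or with −log10 q of at least 5, the colon and SI villus samples overlapped at Slc26a3.

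A call in all 4 colon samples and in none of the 8 SI samples was found for 3 colon peaks of the set: the Slc26a3 site and the Car1 peaks at +0.96 and +6.02 kb. They were 5.00% of the 60 colon peaks, against 0.459% of all 22882 pooled colon peaks. The Car1 peaks lie in the same run, and the genes were chosen with earlier results known, so these shares are a description. The plot of fold enrichment against local background shows how far apart the Slc26a3 site and the Car1 run stand.

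**Figure D3:**
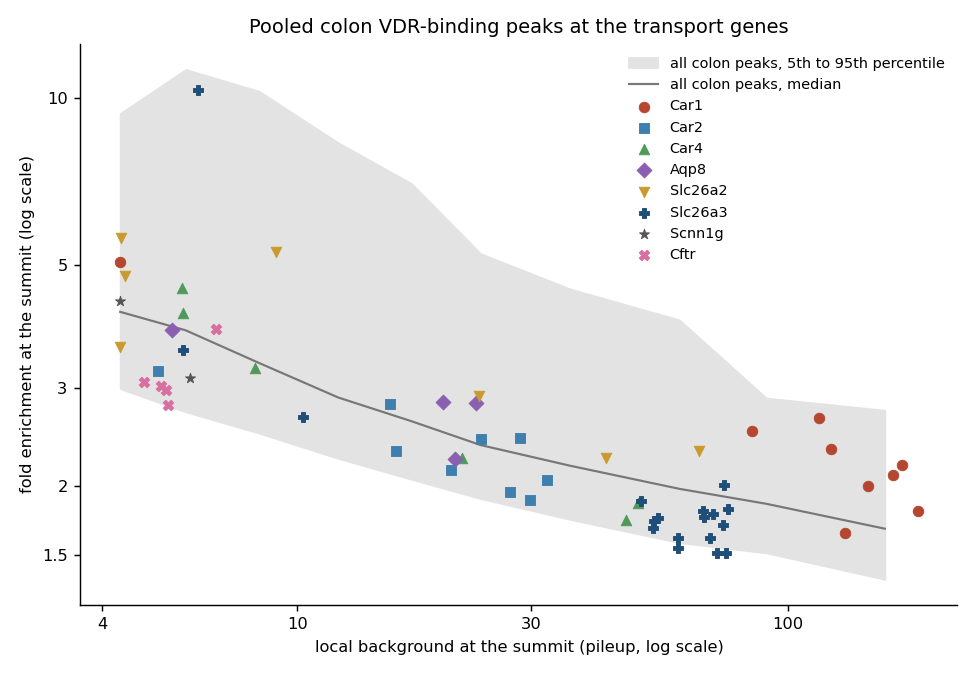
Fold enrichment (vertical axis, log scale) against the local background at the summit (horizontal axis, pileup, log scale) for the pooled colon VDR-binding peaks at the transport genes. The grey band spans the 5th to the 95th percentile of all pooled colon peaks at that background, and the grey line is their median. The Slc26a3 site reached 10.3-fold over a background of 6.27, whereas the 8 Car1 peaks of the run lie at 1.64 to 2.65-fold over 84.6 to 184.

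Aqp8, an aquaporin, had 4 pooled colon VDR-binding peaks, none in the SI crypt and 1 in the SI villus. Its window held 0, 1, 1 and 2 peaks in colon replicates 1 to 4 and 0 in each of the 8 SI samples, so colon and SI overlapped at 0. The peak 6.68 kb from the gene start, just 3′ of the gene (chr7:130605808-130611517), was called in colon replicates 2 and 3 with 3.38 and 3.54-fold enrichment. The intronic peak at +3.72 kb was called in replicate 4 alone, at 3.91-fold, and the SI villus list had a peak over the same place that no SI villus sample called.

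The other carbonic anhydrases had weak VDR-binding peaks. Car4 encodes the membrane-anchored enzyme, and 6 pooled colon peaks and 1 SI villus peak fell in its window (chr11:84771288-84779546 for the gene). Its strongest colon peak, at -11.6 kb, had 4.54-fold enrichment over a background of 5.82 and was called in replicate 3 only. Car2, the high-activity cytosolic enzyme, had 9 pooled colon peaks, of which 8 were called in no single sample, and 1 SI villus peak. Its window held 2 peaks in colon replicate 3 and 0 in the other 11 VDR samples.

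Slc26a2, a sulfate transporter on chromosome 18, was the member with VDR-binding peaks in the most SI samples, 4 of 8. The pooled lists held 7 colon, 2 SI crypt and 3 SI villus peaks in its window. A site 34.7 kb from its start, in a UTR of the neighbouring gene Hmgxb3, was in all 3 lists, with fold enrichments of 5.73 and 6.64 in colon replicates 3 and 4, 9.58 in SI crypt replicate 1, and 7.46, 7.62 and 6.12 in the SI villus replicates 1, 2 and 4. The promoter site at +0.29 kb was called in colon replicate 2, at 3.92-fold, and in the SI villus replicates 1, 2 and 4, at 6.50, 4.36 and 4.20-fold. Neither site separated the compartments. Per sample the window held 2, 2, 3 and 4 peaks in colon, 2, 0, 0 and 0 in the SI crypt and 2, 2, 0 and 2 in the SI villus.

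At the channels, VDR-binding peaks were few. Cftr had 5 pooled colon, 3 SI crypt and 1 SI villus peaks, and the only site in all 3 lists was the intronic +133 kb site, with pooled fold enrichments of 3.83 in colon, 4.80 in the SI crypt and 4.41 in the SI villus. Single calls there came from SI crypt replicate 4, at 3.88-fold, and SI villus replicate 4, at 5.46-fold. Scnn1g had 2 pooled colon peaks that no sample called, and Scnn1b had none. SI crypt and SI villus did not separate at any member in the VDR counts, where 0.0898% of 14483 genes were without overlap with SI crypt higher and 0.0829% with SI villus higher.

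Open chromatin was found near transport genes in every compartment. All 10 genes had a pooled ATAC-seq peak in their window in colon, 9 in the SI crypt and 9 in the SI villus, and among all protein-coding genes 77.1%, 85.4% and 82.1% did in the same order. Car1 was the gene without any in the SI. The windows held 50 pooled ATAC-seq peaks in colon, 68 in the SI crypt and 65 in the SI villus, and merged into 101 sites 28 were shared by all 3 lists. With 3 samples against 3, the smallest exact permutation p is 0.1, so no ATAC-seq count could pass 0.05 and non-overlap is given as a description.

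Colon ATAC-seq peaks called in all 3 colon samples and in 0 of 6 SI samples numbered 8 at the members. They made up 16% of the 50 colon peaks, against 2.70% of all 39428 pooled colon peaks, and belonged to 4 genes. At Car1 the peak lay upstream, at -1.94 kb from the gene start, with 6.57, 9.04 and 9.79-fold enrichment in colon replicates 1 to 3. Car4 had a pair, at -21.4 kb with 8.67, 7.91 and 10.3-fold and at -2.31 kb with 9.07, 9.80 and 10.0-fold enrichment. Although no SI sample called the -2.31 kb peak, the pooled SI villus list held a peak there.

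Aqp8 also had such a pair, at -18.7 kb (6.90, 7.48 and 7.28-fold in colon replicates 1 to 3) and at -13.4 kb (4.92, 6.45 and 7.67-fold). At Slc26a3 the peaks were 3, at +10.2 kb with the VDR-binding site, at +25.3 kb with 4.59, 5.59 and 6.34-fold, and at +38.0 kb with 7.21, 7.90 and 12.2-fold enrichment. All 3 lie upstream of the shared start. In the per-sample counts Car1 had 2, 3 and 2 ATAC-seq peaks in the colon and 0 in all 6 SI samples. Without overlap and with colon higher were 0.792% of 19819 genes against SI crypt and 1.04% of 19439 against SI villus, and Car1 was the only member among them. The colon lists were the shortest. Per 10000 peaks of a sample, 5 members were higher in colon against SI crypt (Car1, Car4, Aqp8, Slc26a2 and Slc26a3) and 6 against SI villus, Scnn1g being the addition, but under that scaling 20.8% of all genes were higher in colon against SI crypt and 20.7% against SI villus. In windows of 100 kb none was.

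Cftr and Aqp4 ran the other way. Cftr, the secretory chloride channel, held 0, 3 and 4 ATAC-seq peaks in colon, 11, 6 and 11 in the SI crypt and 11, 9 and 10 in the SI villus. Colon did not overlap with either SI compartment, but among all genes 28.4% were without overlap with SI crypt higher and 30.0% with SI villus higher, so this was common in these lists. The tallest Cftr peak, in an intron at +100 kb, had no call, 5.28 and 4.63-fold enrichment in colon replicates 1 to 3, 11, 5.81 and 6.47-fold in the SI crypt and 17.9, 19.8 and 15.0-fold in the SI villus. At +10.2 kb an intronic peak was called in 3 of 3 SI crypt and 3 of 3 SI villus samples and in 0 of 3 colon samples. At +144 kb a peak was called in the 3 SI crypt samples alone.

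Aqp4, a basolateral water channel on chromosome 18, had 1, 0 and 0 ATAC-seq peaks in colon, 4, 2 and 3 in the SI crypt and 1, 1 and 0 in the SI villus. SI crypt did not overlap with colon or with SI villus, and of 20185 genes 5.38% were without overlap with SI crypt above SI villus and 4.44% with SI villus above SI crypt. Its intronic peak at +0.88 kb had 7.07, 8.84 and 7.40-fold enrichment in SI crypt, and its upstream peak at -24.0 kb had 7.88, 7.60 and 9.83-fold, with no call in the 3 colon and 3 SI villus samples. Peaks called in every sample of their own compartment alone numbered 4 of 68 in SI crypt, where the whole list had 3.33%, and 1 of 65 in the SI villus, where it had 3.43%.

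**Figure D4:**
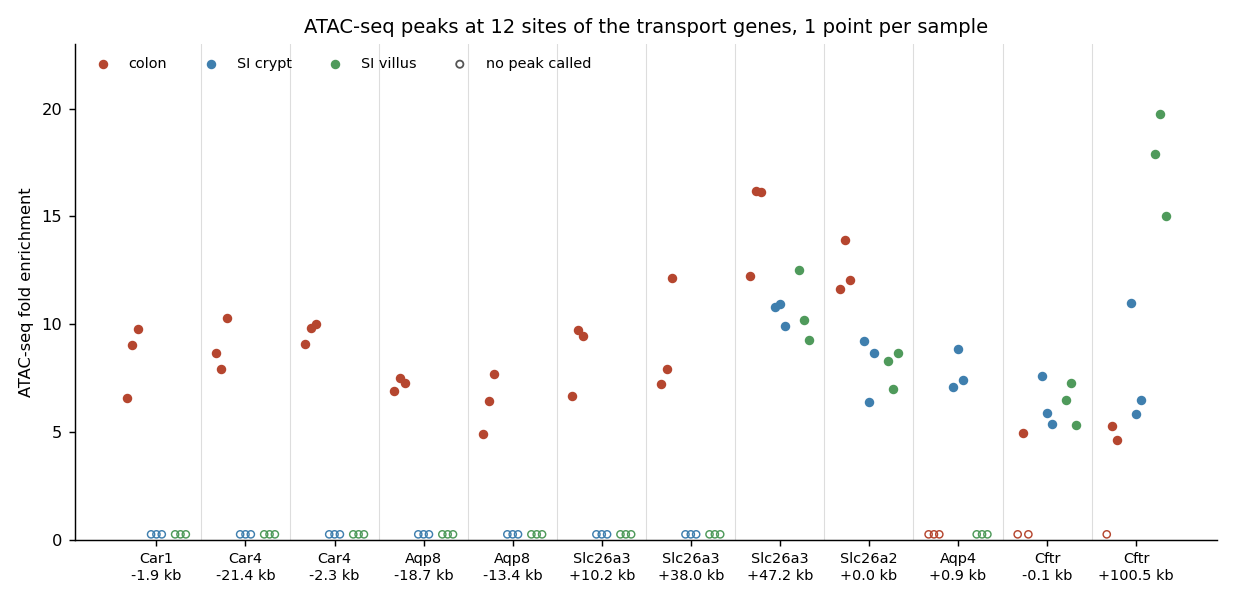
ATAC-seq fold enrichment (vertical axis) at 12 sites of the transport genes, named by gene and by distance from the gene start (horizontal axis). Each filled point is a sample with a called peak (colon, SI crypt and SI villus, left to right) and an open point at the foot is a sample without one. The 7 sites at the left have points in colon alone, Aqp4 at +0.9 kb in SI crypt alone, and Cftr at +100 kb has its highest points, 15.0 to 19.8, in the SI villus.

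Open promoters were about as frequent as over all genes. Within 1 kb of the gene start, 4 of the 10 genes (Car2, Aqp8, Slc26a2 and Scnn1g) had an ATAC-seq peak in all 9 samples, against 35.1% of all genes. In all 3 samples of a compartment, 4 promoters were open in colon, 6 in the SI crypt and 5 in the SI villus, where 40.6%, 44.7% and 41.3% of all genes were. Cftr was open in 1 of 3 colon samples, 3 of 3 of SI crypt and 3 of 3 of SI villus, and Aqp4 in the 3 SI crypt samples alone. Car4 was open in 2 of 3 colon and in 0 of 6 SI samples. Scnn1b, for the beta subunit of the sodium channel, was open in 1 colon and 1 SI villus sample, at 4.04 and 3.88-fold enrichment, whereas the gamma subunit gene Scnn1g reached 7.87, 10.0 and 9.01-fold in colon, 9.65, 10.7 and 9.54-fold in the SI crypt and 10.3, 5.83 and 7.07-fold in the SI villus.

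Car1 and Slc26a3 had no open promoter within 1 kb of the start of the gene record. At Car1 the nearest colon peak, at -1.94 kb and called in all 3 colon samples, lay outside that distance. For Slc26a3 the lack of an open promoter rested on the annotation. At the shared start, 47.2 kb into the record, peaks were called in all 9 samples. Their enrichment was 12.2, 16.2 and 16.1-fold in colon, 10.8, 10.9 and 9.90-fold in the SI crypt and 12.5, 10.2 and 9.27-fold in the SI villus. Among promoters at the start of the gene record, that of Slc26a2 had the highest enrichment in colon, at 11.6, 13.9 and 12.0-fold, against 9.21, 6.37 and 8.68-fold in the SI crypt and 8.29, 7.01 and 8.65-fold in the SI villus. Each colon value lay above all 6 SI values, as at the Slc26a3 start for the SI crypt samples.

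A smaller share of the set than of the whole list lay in open chromatin in colon: of the 60 colon peaks 16 (26.7%) overlapped a pooled colon ATAC-seq peak by at least 1 bp, against 41.9% of all pooled colon VDR-binding peaks. The Car1 and Slc26a3 runs held 23 of the 60 peaks and 2 of those overlaps, and the other 37 peaks held 14 (37.8%). In SI villus 9 of 10 peaks overlapped, against 56.3% of the list, and in SI crypt 2 of 6, against 50.4%. ChIP-seq and ATAC-seq mice differ in their labelled ages, and the methods describe the ATAC-seq mice as untreated, although their labels mention the hormone. The overlap is therefore between pooled lists of the same compartment, not between matched samples.

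Known motifs were searched in the 200 bp at each VDR-binding summit, on both strands. The DR3 element was at 0 of 60 colon, 0 of 6 SI crypt and 0 of 10 SI villus summits of the set, where 2.05%, 2.31% and 1.69% of all summits of those lists held it. With at most 1 mismatch, it was at 2 colon summits (the Slc26a2 promoter and Cftr +133 kb), no SI crypt summit and 2 SI villus summits (the same places), against 10.4%, 9.70% and 8.24% of all. In colon the AP-1 motif TGANTCA was at 6 of the 60 summits against 7.37% of all, the GATA motif AGATAA at 7 against 7.52%, the CDX motif TTTATNG at 4 against 8.98% and the HNF4A motif CAAAGTCCA at 1 against 0.944%. Summits of the set had a median GC content of 48.0% in colon, 46.8% in the SI crypt and 49.0% in the SI villus, against 51.0%, 56.5% and 55.5% in the whole lists.

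Other transport genes were examined as 2 lists. Of 38 further ion and water transport genes, 34 had a pooled VDR-binding peak in colon, 26 in the SI crypt and 33 in the SI villus, and of 14 regulators of transport 14, 12 and 13 did. Among all protein-coding genes 63.2%, 51.6% and 56.9% did in the same order, so both lists lay above these shares in each compartment. Both were chosen with earlier results of these data known, so the counts are a description. None of the 52 separated with colon higher in the VDR counts. Per-sample VDR counts were higher without overlap in the SI villus at 1 of the 38, where 0.542% of genes were, and in SI crypt at 0, where 0.224% were. In the ATAC-seq counts 1 of the 38 was higher in colon than in the SI villus and 0 than in SI crypt, whereas 10 were higher in the SI crypt and 13 in the SI villus, near the shares of all genes (28.4% and 30.0%).

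A VDR-binding peak that all 4 samples of a compartment called was found at 10 of these genes, with Guca2a and Guca2b sharing a site. The share of all protein-coding genes with such a peak is not given here, so this count is a description. The peak nearest the pattern of Slc26a3 was at Slc9a3, the apical sodium-hydrogen exchanger that works beside SLC26A3: at -8.38 kb from its start, with −log10 q of 60.9 in colon and calls in 4 colon samples, 0 of SI crypt and 1 of SI villus. Atp1b1, a sodium pump subunit, had a site at +22.1 kb called in 4 colon samples, 1 of SI crypt and 1 of SI villus. At Car13, another cytosolic carbonic anhydrase, the promoter site (-0.04 kb) was called in 4 colon samples, 2 of SI crypt and 4 of SI villus, with −log10 q of 154 in the SI villus. The Best2 window held an intergenic site, +29.4 kb from the gene start, called in all 12 samples (−log10 q of 806 in the SI villus). Sgk1 had a site in its body called in 4 colon samples, 3 of SI crypt and 4 of SI villus. At Slc9a3r1 an intergenic site, +18.7 kb from the gene start, was called in 3 colon samples, 4 of SI crypt and 4 of SI villus. Pdzk1 was called in 0 colon samples, 1 of SI crypt and 4 of SI villus, and the site shared by Guca2a and Guca2b, for the peptides guanylin and uroguanylin, in 0, 3 and 4. Atp12a, the colonic proton-potassium pump, was the only gene of both lists with a promoter open in 3 of 3 colon and 0 of 6 SI samples, and it had no VDR-binding peak.

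The wide signal over Car1 had counterparts in the SI. Among 10 SI brush border genes, pooled VDR-binding peaks covered a median of 0.709% of the gene body in colon, 7.08% in the SI crypt and 23.9% in the SI villus, and at least 10% of it at 0, 4 and 7 genes. Over all genes, 3.54% reached that coverage in colon, 3.13% in the SI crypt and 4.11% in the SI villus. At the 10 colonic transport genes the medians were 4.99% in colon, 0% in the SI crypt and 0.268% in the SI villus. Coverage was at least 10% at 3 genes in colon (Car1, Car2 and Car4) and at 0 in either SI compartment. Unlike the Car1 run, no pooled colon peak at Car2 or Car4 was called in more than a single colon sample. In the per-sample VDR counts 3 of the brush border genes were higher in SI crypt than in colon and 3 higher in the SI villus than in colon, without overlap.

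**Figure D5:**
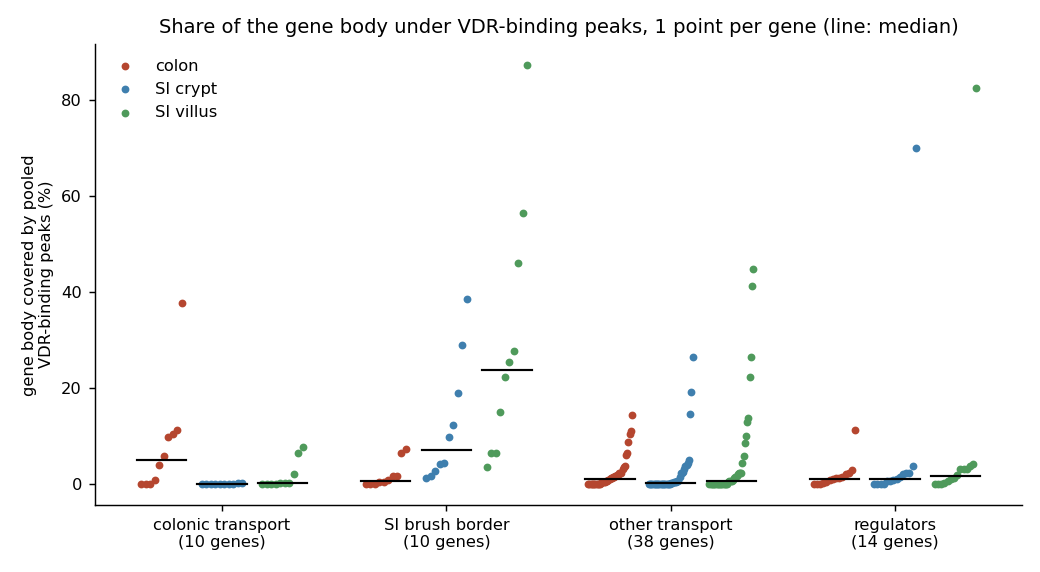
Share of the gene body (vertical axis, %) under pooled VDR-binding peaks for the colonic transport genes, the SI brush border genes, the other transport genes and the regulators (horizontal axis). Each point is a gene (colon, SI crypt and SI villus, left to right) and each line a median. The colonic transport genes reach 37.7% in colon and 7.83% at most in the SI, and the SI brush border genes have medians of 0.709% in colon and 23.9% in the SI villus.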

How the data were processed

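VDR ChIP-seq (12 samples) and ATAC-seq (9 samples) were analysed from deposited peak lists. The authors aligned reads to mm9 with Bowtie2 2.2.6 and called peaks with MACS2 2.1.0.20150731, without an input control, for each sample and for the pooled samples of a compartment. The submitters' processing notes also name cutadapt 1.9.1, Picard 2.18.27, SAMtools 0.1.19 and bedtools 2.17.0. The deposited values are the pileup (signal) at each summit, the fold enrichment (a ratio over local background) and −log10 q. They lack counts per gene, so per-sample results rest on the peaks in each list. Peak number did not follow read number. Among the VDR samples, SI crypt replicate 1 had the most peaks (13381) from the fewest reads (3100376). SI villus replicate 3 had 1535 peaks from 12479695 reads. The position lists the authors deposited give filtered peaks, and 6 further deposited files hold the positions of the authors' own differential sites and were not used.

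Here, peaks overlapping a GENCODE M1 gene body plus 30 kb by at least 1 bp were counted per sample for 22367 protein-coding genes. Compartments were compared by an exact two-sided permutation test of these counts with Benjamini-Hochberg adjustment across all genes (Python 3.11.15, numpy 2.4.6, scipy 1.17.1), after the scripts were tested on simulated data. Local background is the pileup plus 1, divided by fold, minus 1. The genes and lists were chosen with earlier results of these data known. Named genes are the 10 members, and from the lists those with a VDR-binding peak in all 4 samples of a compartment or with a promoter open in colon alone (3 of 3 against 0 of 6). Alternatives were other windows, thresholds, equal numbers of peaks, the replicate block and leaving out samples. Results for some genes of these lists are not reported here.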

Additional observations from a re-analysis of the deposited data

Results flagged for a closer look

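Among 30 groups of 4 VDR ChIP-seq samples (10 genes in 3 compartments), 8 had a sample set apart from the others in the number of peaks in the gene window by Dixon's criterion, which chance alone meets in about 1 of 20 groups. With counts this small the criterion is met whenever 3 samples are equal. Colon replicate 3 held 2 peaks at Car2, where the other colon samples held 0. Colon replicate 4 held 3 peaks at Slc26a3, where the others held 1, and 2 peaks at Cftr, where the others held 0. SI crypt replicate 1, the SI crypt sample with the most peaks, held 2 peaks at Slc26a2 and 1 at Slc26a3, where the others held 0. SI villus replicate 2 held 1 peak at Car4 and SI villus replicate 4 held 1 at Cftr, where the others held 0. SI villus replicate 3, the sample of that compartment with the fewest peaks, held 0 peaks at Slc26a2, where the others held 2.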

How the results depend on the processing

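Of 222 alternative values for 30 results, 179 stayed within 1.5 times the reported value and 43 did not; the cause was not tested. Members with a pooled VDR-binding peak were 8 (colon), 3 (SI crypt) and 6 (SI villus), but 4, 0 and 1 when a peak had to be called in at least 2 samples. Members above SI crypt in colon VDR counts (1) numbered 2 in windows of 100 kb (Scnn1g added), 3 per 10000 peaks, 0 with equal numbers of the strongest peaks, and 1 to 3 with a sample left out. Members above SI villus in colon VDR counts (2) numbered 0 with equal numbers, 1 with −log10 q of at least 5, and 2 in windows of 100 kb, where Scnn1g stood in place of Slc26a3. In ATAC-seq counts, members higher in colon than in SI crypt (1) numbered 0 in 100 kb windows, 5 per 10000 peaks, 3 with equal numbers, 2 with −log10 q of at least 5 and 1 to 2 with a sample left out. Those higher in colon than in SI villus (1) numbered 0, 6, 3 and 1 to 2 under the 100 kb window, the scaling, equal numbers and the omissions. Members higher in SI crypt than in colon (2) numbered 1 in 10 kb windows, those higher in SI villus than in colon (1) numbered 2 in 100 kb windows and 1 to 3 with a sample left out, and those higher in SI crypt than in SI villus (1) numbered 0 in 10 kb windows and 1 to 2 with a sample left out. Members higher in SI villus than in SI crypt (0) numbered 1 with equal numbers, 1 with −log10 q of at least 5, and 0 to 2 with a sample left out.

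With the replicate block, members higher in SI villus than in SI crypt in ATAC-seq counts numbered 1 (Aqp8). Same-numbered samples share only a number: their deviations from the compartment means correlated at -0.447 to 0.586 for VDR and -0.347 to 0.289 for ATAC-seq, with 4 of 12 and 2 of 9 over 0.1. No block result can fall below an exact permutation p of 0.125 for VDR or 0.25 for ATAC-seq.

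Colon VDR-binding peaks in open chromatin (16) numbered 8 with 50% coverage and 8 with the summit inside, those of SI crypt (2) numbered 1 under each of these and 1 with equal numbers of ATAC-seq peaks, and those of SI villus (9) numbered 5 with 50% coverage and 5 with equal numbers. DR3 elements with at most 1 mismatch at colon summits (2) numbered 1 in 100 bp and 4 in 400 bp, at SI crypt summits (0) 1 in 400 bp, and at SI villus summits (2) 1 in 100 bp. Counting any annotated transcript start, chosen after seeing the data, gave 5 open promoters for colon, 7 for SI crypt and 6 for SI villus. Peak lists hold no reads per gene, so a site below the calling threshold in the shallower SI crypt and SI villus samples was not detectable.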
